A study of Mus musculus with 24 samples.

Results

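The regions described here are 875 stretches of promoter chromatin that were scored as open in young neurons of both classes studied and in neither class at the later ages. They were selected from the peak lists themselves. All peaks on chromosomes 1 to 19, X and Y were merged into 85867 regions wherever they overlapped by at least 1 bp, and a region was kept if it lay in at least 2 of the 4 lists of each class from E18.5 to P7, called early, in none of the 4 lists from P21 or P48, called late, and within 1 kb of an annotated transcription start site (TSS). Of the 14278 regions near a TSS, these were 6.13%, and of the 7695 that met the early part of the rule they were 11.4%. The other 6820 regions that met the early part lay in at least 1 late list and are called kept regions below. They are not matched to the members in early strength or number of early lists. Presence early and absence late were thus fixed by the selection and are no result.

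Accessibility was measured by ATAC-seq in tdTomato-positive neurons sorted from the somatosensory and motor cortex of C57BL/6 mice. One class came from Cux2-CreERT2:Ai14 animals, whose Cre marks callosal projection neurons of the upper layers, and the other from Tle4-2A-CreERT2:Ai14 animals, whose Cre marks corticothalamic projection neurons of layer 6. In both, Cre was driven by the locus of the named gene, and every group, with no untreated control among them, had received 4-hydroxytamoxifen through the pregnant dam to switch on the reporter. Per the methods, the Cux2 line also labels some interneurons, and each library pooled 10 animals of both sexes. Each class was collected around birth (E18.5 and P1), in the first postnatal week (P3 and P7) and after it (P21 and P48), giving 12 groups with 2 libraries per group and 24 in all, and each group was deposited as a single peak list made from both libraries, so that there were no replicate values and the list was the unit of every comparison. The lists held between 6540 and 45649 peaks. Read depth cannot be read from these lists, and the methods give only a nominal depth common to all libraries.

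A promoter is the stretch around a TSS where transcription factors and RNA polymerase assemble, and in ATAC-seq it appears as a short gap between nucleosomes that the transposase can cut. Many mammalian promoters sit in CpG islands, stretches rich in C, G and the CG dinucleotide, and these are open in most cell types, whereas distal elements are mostly poor in CpG and open in few. In the perinatal cortex, projection neurons have left the cell cycle and extend axons and dendrites, and over the following weeks they form synapses and mature.

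To show what these promoters look like, the 250 bases before the nearest TSS are given for 8 of them, read 5′ to 3′ on the strand of the gene from the mm9 (NCBIM37) reference. None overlaps an annotated exon. Capitals mark exact matches on either strand to the 18 short motifs searched, the relevant ones being the NFY CCAAT box (CCAAT or ATTGG), the SP/KLF GC box (GGGCGG), NRF1 (GCGCATGCG), the CTCF core (AGGGGGCG), the MYC/USF E-box (CACGTG), CREB/ATF (TGACGTCA), AP-1 (TGANTCA) and the TATA box (TATAAA). The GC box and the CTCF core can overlap. Sp100 and Wbscr27 were the 2 highest ranked members, Usp28 and Smap2 stood among the 10 highest, Itgal is poor in CpG, and Fzd7, Btg2 and Snap25 come from the gene lists treated below.
Sp100: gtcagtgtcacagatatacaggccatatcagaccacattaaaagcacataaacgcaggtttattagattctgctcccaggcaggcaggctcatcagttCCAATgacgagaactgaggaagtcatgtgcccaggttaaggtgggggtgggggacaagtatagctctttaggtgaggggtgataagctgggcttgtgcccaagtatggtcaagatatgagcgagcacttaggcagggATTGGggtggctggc
Wbscr27: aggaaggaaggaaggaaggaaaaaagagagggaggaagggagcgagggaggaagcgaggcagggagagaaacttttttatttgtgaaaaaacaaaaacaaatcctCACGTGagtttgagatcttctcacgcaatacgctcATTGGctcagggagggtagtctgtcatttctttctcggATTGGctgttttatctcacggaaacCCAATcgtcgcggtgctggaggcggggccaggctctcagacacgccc
Usp28: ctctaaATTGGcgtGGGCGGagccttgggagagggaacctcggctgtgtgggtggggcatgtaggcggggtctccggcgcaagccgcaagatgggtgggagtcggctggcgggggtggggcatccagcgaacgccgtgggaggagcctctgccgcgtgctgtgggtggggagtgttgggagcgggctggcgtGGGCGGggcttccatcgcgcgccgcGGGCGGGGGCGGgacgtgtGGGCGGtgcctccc
Smap2: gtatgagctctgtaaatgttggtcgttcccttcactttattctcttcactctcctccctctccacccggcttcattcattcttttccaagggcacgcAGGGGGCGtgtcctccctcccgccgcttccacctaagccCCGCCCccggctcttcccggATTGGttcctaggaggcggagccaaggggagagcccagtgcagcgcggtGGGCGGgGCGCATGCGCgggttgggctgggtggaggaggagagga
Fzd7: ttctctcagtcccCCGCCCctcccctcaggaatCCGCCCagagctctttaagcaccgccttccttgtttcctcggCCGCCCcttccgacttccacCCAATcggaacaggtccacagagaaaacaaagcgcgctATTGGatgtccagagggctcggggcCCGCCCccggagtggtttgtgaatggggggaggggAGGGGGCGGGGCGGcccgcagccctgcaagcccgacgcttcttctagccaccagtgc
Btg2: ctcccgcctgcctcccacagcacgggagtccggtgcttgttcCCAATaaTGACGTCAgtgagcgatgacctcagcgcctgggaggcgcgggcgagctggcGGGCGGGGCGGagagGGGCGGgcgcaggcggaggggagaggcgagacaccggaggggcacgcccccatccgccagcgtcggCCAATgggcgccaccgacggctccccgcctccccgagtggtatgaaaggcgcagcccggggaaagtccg
Snap25: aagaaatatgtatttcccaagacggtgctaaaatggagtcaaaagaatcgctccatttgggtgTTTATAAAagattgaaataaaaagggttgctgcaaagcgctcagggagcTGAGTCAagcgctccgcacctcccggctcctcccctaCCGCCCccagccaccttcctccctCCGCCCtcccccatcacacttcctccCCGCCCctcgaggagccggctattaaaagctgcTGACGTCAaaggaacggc
Itgal: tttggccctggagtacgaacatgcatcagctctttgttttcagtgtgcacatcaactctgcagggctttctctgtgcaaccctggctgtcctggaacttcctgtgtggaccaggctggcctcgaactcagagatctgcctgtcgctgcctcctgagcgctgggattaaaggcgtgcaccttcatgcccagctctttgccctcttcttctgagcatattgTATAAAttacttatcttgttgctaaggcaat
These stretches lay on chromosome 1 from 87599767 to 87600016 (plus strand) for Sp100, chromosome 5 from 135407988 to 135408237 (plus) for Wbscr27, chromosome 9 from 48793240 to 48793489 (plus) for Usp28 and chromosome 4 from 120689853 to 120690102 (minus) for Smap2. Those of Fzd7 and Btg2 lay on chromosome 1, from 59538741 to 59538990 (plus) and from 135975698 to 135975947 (minus). That of Snap25 lay on chromosome 2 from 136538939 to 136539188 (plus) and that of Itgal on chromosome 7 from 134452782 to 134453031 (plus). The sequences differ widely in kind: Usp28 held 26 CG dinucleotides and 5 GC boxes, Btg2 29 CG dinucleotides, and Sp100 3 CG dinucleotides with 2 CCAAT boxes. Smap2 held 2 overlapping NRF1 matches, 1 on each strand of the same palindrome (GCGCATGCGC).

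The members were mostly the ordinary 5′ ends of protein-coding genes. The nearest TSS belonged to a protein-coding gene for 94.7% of the 875, and 770 (88.0%) spanned a TSS. For 753 (86.1%) the nearest TSS was within 1 kb of the outermost TSS of its gene. Their summits sat just upstream of the TSS, at a median of -43.5 bp (quartiles -102.5 and -1 bp), and 79.8% lay within 250 bp of it. The shares were higher in kept regions, with 95.2% spanning a TSS and 87.3% having the summit within 250 bp. Regions with protein-coding TSSs on both strands within 1 kb made up 9.14% of members and 13.1% of kept regions. The X chromosome carried 28 members (3.2%), close to its 3.40% of kept regions.

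In base composition the members were promoters of the CpG island kind. Their median GC content was 60.8% against 57.7% in kept regions, and their median ratio of observed to expected CpG was 0.756 against 0.730. With an island-like region defined by GC above 50% and a ratio above 0.6, 643 members qualified, 73.5% (95% Wilson interval 70.5 to 76.3%), against 74.2% of kept regions, 76.5% of the 2579 promoter regions open in all 12 lists and 55.9% of all promoter regions. With stricter limits of 55% and 0.65 the order changed, to 62.3% of members and 54.97% of kept regions. The 1746 distal regions chosen by the same early and late rule were of another kind, with a median GC content of 43.4%, a ratio of 0.224 and 3.44% island-like. Intervals here and below cover counting error only, and neighbouring regions are not independent.

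**Figure D1:**
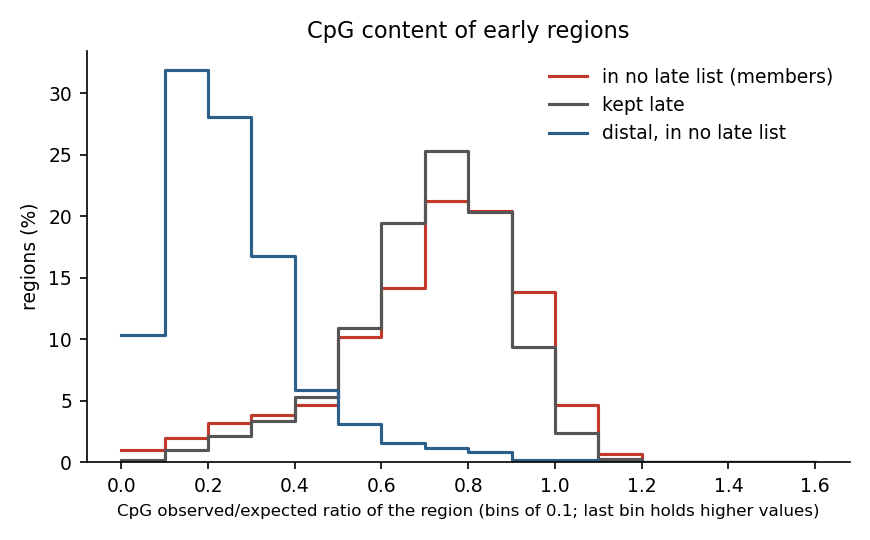
Distribution of the CpG observed/expected ratio (x axis, bins of 0.1) as a percent of regions (y axis) in the 875 members, the 6820 kept regions and the 1746 distal regions of the same early and late rule. Members and kept regions share a peak between 0.7 and 0.9, whereas distal regions peak between 0.1 and 0.3.

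A CpG-poor tail was present among members: 54 of them (6.17%) had a ratio under 0.3, compared with 3.33% of kept regions. The 5 highest ranked of these with a protein-coding TSS were at Itgal (an integrin subunit of leukocytes), Akd1, Unc13b (a Munc13 protein that primes synaptic vesicles), Nfic (a nuclear factor I transcription factor) and Col4a2 (a basement membrane collagen chain). At Itgal, whose region lay 171 bp from the TSS, fold enrichment over background was 12.3, 11.8, 14.7 and 15.3 in the Cux2 lists from E18.5 to P7, and 12.3 and 12.7 in the Tle4 lists of P3 and P7, with no peak in the earlier Tle4 lists. The Itgal region was therefore held by 6 of the 8 early lists. At Unc13b and Nfic it was the Tle4 E18.5 list alone that lacked the region. The Unc13b and Col4a2 genes kept another promoter region in a late list, so the absence concerned 1 start of the gene and not the gene as a whole.

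Within the early window, the members were not held equally by the lists. Each was required in only 4 lists, and 74, 141, 237, 278 and 145 members lay in exactly 4, 5, 6, 7 and 8 early lists. The Cux2 lists held 838 members at E18.5, 743 at P1, 810 at P3 and 626 at P7, and the Tle4 lists 696, 729, 844 and 243. The Tle4 P7 list thus stood apart, with 27.8% of members, and it was also the shortest early list, at 15189 peaks. The commonest pattern, with 234 members (26.7%), was presence in every early list but that one. Kept regions were also least frequent there, at 77.2%, but were otherwise in 90.6 to 99.1% of their number in each early list.

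**Figure D2:**
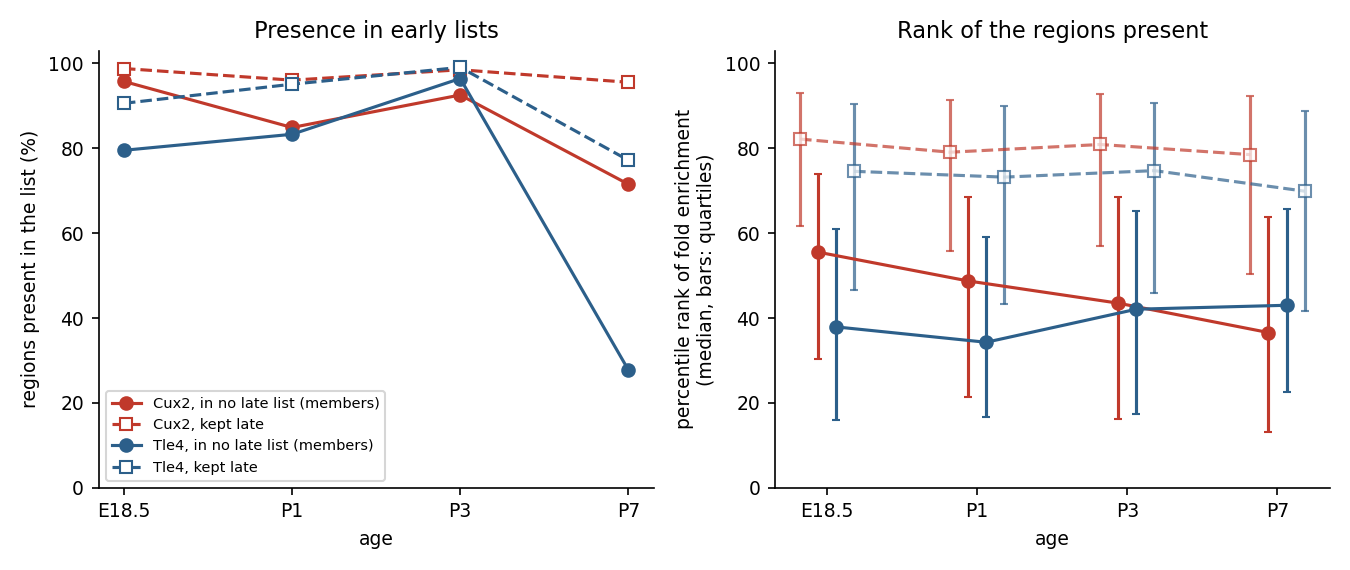
Left, percent of the 875 members (filled) and of the 6820 kept regions (open) present in each early list by age, for Cux2 and Tle4; right, median percentile rank of fold enrichment of the regions present, with bars for the quartiles. Members in the Tle4 list stood at 27.8% at P7, and their median ranks of 34.3 to 55.5 lay below the 69.9 to 82.2 of kept regions in every list.

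From each early age to the next, a smaller share of members than of kept regions was retained in either class, with the widest gaps from P3 to P7. Of the members in the Cux2 list at P3, 73.5% were still listed at P7, against 95.8% of kept regions, and in Tle4 the shares were 27.6% and 77.5%. Members were also retained at lower shares at the earlier steps, with 86.2% against 96.6% in Cux2 and 82.6% against 96.3% in Tle4 from E18.5 to P1, and 93.3% against 99.0% and 96.4% against 99.2% from P1 to P3. At P7 215 members (24.6%) were present in both classes, 221 (25.3%) in neither, 411 (47.0%) in Cux2 only and 28 (3.2%) in Tle4 only. Presence in these same lists chose the members, and kept regions were not matched to them in number of early lists. Of the 4899 early promoter regions in all 8 early lists, 145 were members. The retained shares are therefore a description and do not show closing by themselves. List length moved with these counts and its part in them was not tested, beyond what follows.

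Presence in the early lists was part of the selection, so differences in the number present are given without a test. The Cux2 lists held on average 126.25 more members than the Tle4 lists of the same age. The direction of that difference depended on the denominator, for as a share of each list's promoter regions members made up 7.92, 8.38, 8.27 and 6.91% in Cux2 and 9.45, 9.60, 9.81 and 4.20% in Tle4, a mean difference of -0.391 percentage points. Over the 4 ages the number present had a slope of -90.7 members per age step, and without the P7 lists the slope was 30.0 members per step. With every list cut to its 6538 strongest peaks the slope was -23.2 members per step. The P7 lists therefore carried the direction of the age trend.

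In strength, the members were middling peaks. The percentile rank of a peak's fold enrichment within its list (100 being the strongest) had a median among members of 55.5, 48.8, 43.5 and 36.6 in the Cux2 lists from E18.5 to P7, and of 37.9, 34.3, 42.1 and 43.0 in the Tle4 lists. Kept regions had medians of 78.5 to 82.2 in Cux2 and 69.9 to 74.8 in Tle4. Averaged over the 8 early lists the members' median lay 26.9 ± 7.42 (SD, n = 8 lists) rank points below that of the other promoter regions, with a range from 12.6 to 36.5 points below. The lists are not independent of the rule, so this is a description. For the 145 members in all 8 lists, a subset that the listing itself makes stronger, the difference from all other promoter regions was -4.05 points.

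The median rank did not differ between the classes past the threshold (Cux2 minus Tle4 6.77 points, exact two-sided sign-flip permutation over the 4 ages, p = 0.375, adjusted p = 0.389, where 4 pairs cannot go below 0.12) and no change with age passed it (-1.95 points per age step, exact two-sided permutation of ages within class, p = 0.389, adjusted p = 0.389). The ranks come from the same lists that chose the members, and the rule required absence at the later ages. These tests therefore cannot decide on class or age, and the values are a description. The median fold enrichment of members ran from 8.12 to 10.5 in Cux2 and from 9.26 to 9.89 in Tle4. A single list's members spanned a wide range, such as 3.95 to 26.3 in Cux2 at P1, where the highest value belonged to Arid3b.

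Weaker early regions were missing late at higher shares, a description, since strength and membership come from the same lists. When the 7695 early promoter regions were ordered by their mean early rank and cut into 4 equal bins, 25.1% of the weakest bin were members, followed by 14.1%, 5.25% and 1.04% (20 of 1924 regions) in the strongest. By number of early lists the share was 46.8% at 4 lists, 39.9% at 5, 28.3% at 6, 19.2% at 7 and 2.96% at 8. Island-like and other regions were missing late at similar overall shares, 11.3% and 11.7%. In the weakest bin, 27.7% of island-like regions (95% Wilson interval 25.4 to 30.2%) and 19.4% of the others (16.5 to 22.7%) were members. From the next bin to the strongest, the shares were 13.9, 5.10 and 1.04% of island-like regions and 14.8, 5.79 and 1.05% of the others. The intervals cover counting error only and are not a test of a difference.

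**Figure D3:**
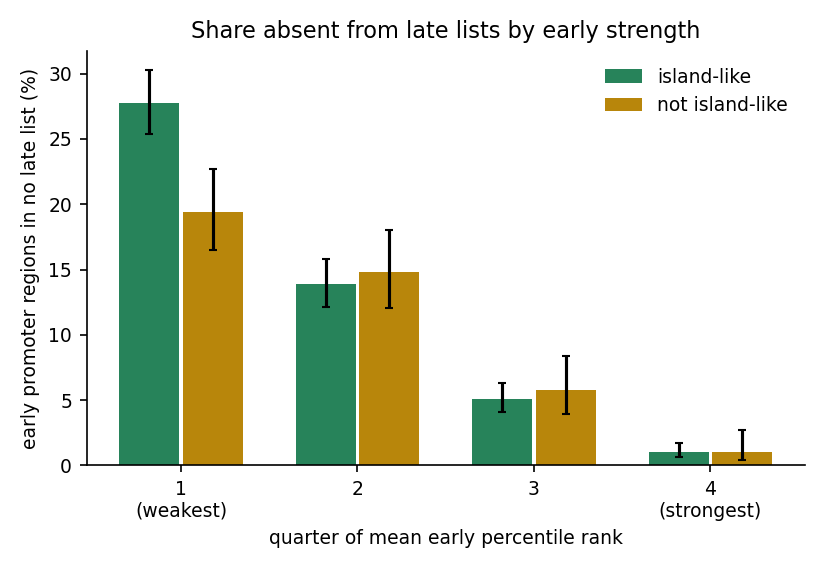
Percent of early promoter regions present in no late list (y axis, with 95% Wilson intervals as error bars) in 4 equal bins of mean early percentile rank (x axis), for island-like and other regions. Both kinds go from over 19% in the weakest bin to about 1.04% in the strongest.

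A small set of members was strong in the young neurons. Only 36 (4.11%) had a mean rank above 80, and the 10 highest with a protein-coding TSS were Sp100, Wbscr27, Gpatch8, Usp28, Arid3b, G630090E17Rik, Epn1, Zfp28, Smap2 and Stag3. These genes have varied roles: Sp100 is a component of PML nuclear bodies, Usp28 a deubiquitinase, Arid3b an AT-rich interaction domain DNA-binding protein, Epn1 an epsin of clathrin-mediated endocytosis, Zfp28 a zinc finger protein, Smap2 a GTPase-activating protein for Arf and Stag3 a meiotic cohesin subunit. The Stag3 region (chromosome 5, 138720923 to 138721781) also spanned the start of Gpc2, a glypican on the opposite strand. Epn1 and Smap2 each had another promoter region in a late list, 9352 bp and 383 bp being the distances to the nearest late peak, whereas the other 8 had none.

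Sp100 (region at chromosome 1, 87599792 to 87600616, over its first exon with coding sequence) had fold enrichments of 19.4, 20.9, 19.3 and 19.4 in the Cux2 lists from E18.5 to P7 and of 20.97, 17.8, 19.01 and 18.1 in the Tle4 lists. Its fold enrichments were therefore nearly level until P7, the last age at which it was listed, and the nearest late peak was 53812 bp away. Wbscr27 (chromosome 5, 135408007 to 135408783) had 16.9, 20.4, 17.6 and 20.1 in Cux2 and 16.9, 18.52, 17.4 and 18.1 in Tle4, again with P7 among the high values. Arid3b (chromosome 9, 57684170 to 57685078, over an untranslated first exon) had 19.3, 26.3, 16.3 and 12.2 in Cux2 and 16.4, 18.47, 17.3 and 12.2 in Tle4, and was lowest at P7 in both classes. Usp28, Zfp28 and Stag3 had their lowest Cux2 value at P7 as well. Epn1 had 19.1, 18.6, 19.3 and 11.1 in Cux2 and 14.0, 17.4 and 17.9 in Tle4 from E18.5 to P3, with no peak in Tle4 at P7. By fold enrichment the strong members thus included both regions level through P7 and regions already lower by then. These values are not normalized between lists, and the median over all members was lowest in Cux2 at P7 (8.12 against 9.29 to 10.5). By percentile rank, Sp100 and Wbscr27 were highest in Cux2 at P7, at 99.2 and 99.5. Arid3b, Usp28, Zfp28, Stag3 and Epn1 had their lowest Cux2 rank there, from 79.2 to 93.7.

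**Figure D4:**
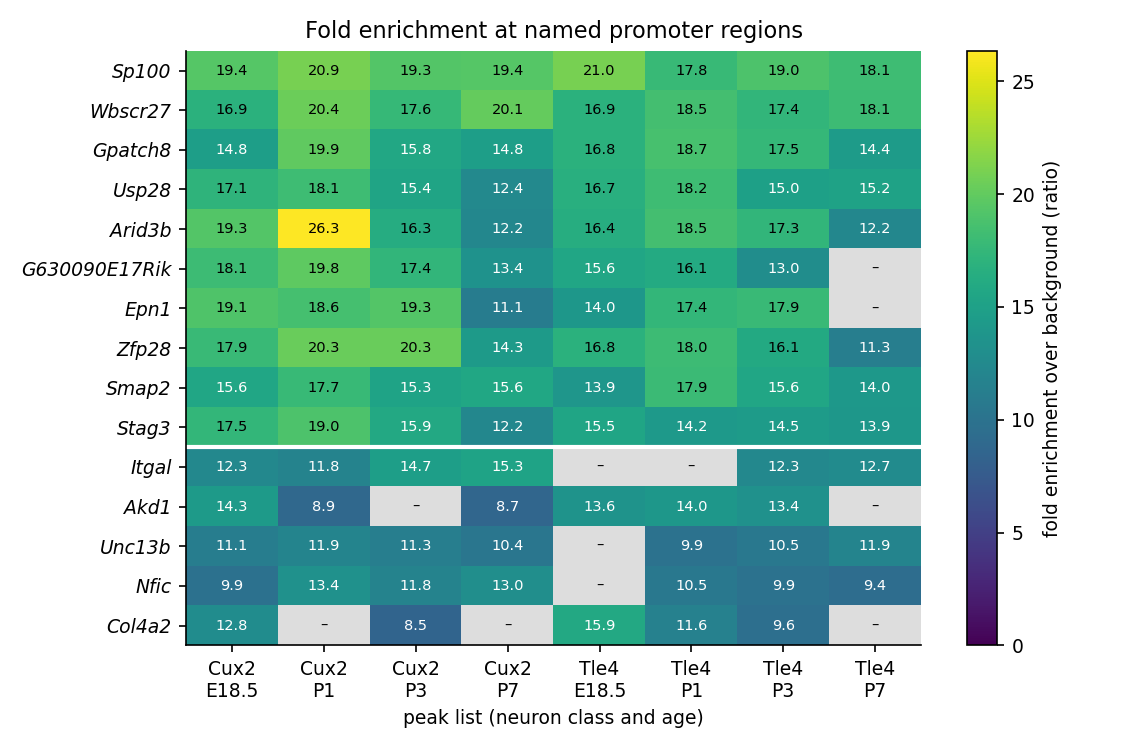
Fold enrichment over background (colour and printed value) of the 10 highest ranked members (above the white line) and of the 5 highest ranked CpG-poor members (below) in each early list; grey with a dash is no peak. Sp100 stays between 17.8 and 20.97 in all 8 lists, and grey cells occur mostly in the CpG-poor rows and at Tle4 P7.

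Of the 14035 gene names with a promoter region, 1021 (7.27%) had a member within 1 kb of a TSS. Each gene list below is read against that share. Lists were compared by counts only, and small lists give coarse shares. A member near a gene says nothing of the gene's RNA, which was not analysed here.

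For signalling pathways of early development the shares were above the background, with no test. For Wnt signalling the count was 6 of 26 genes (23.1%), with the receptors Fzd2, Fzd7 and Fzd9, the cytoplasmic transducer Dvl2, the repressor-type factor Tcf7l1 and Apc of the β-catenin destruction complex. For Notch, hedgehog, BMP and TGF-beta signalling it was 7 of 30 (23.3%), among them the receptors Acvr1, Acvr2a, Bmpr1a and Tgfbr1, the common mediator Smad4 and the hedgehog effector Gli2. Apc, Acvr1 and Tgfbr1 had another promoter region in a late list. Fzd7 was the strongest of these, with fold enrichments of 18.1, 18.9, 13.9 and 12.0 in Cux2 and 17.4, 14.2, 11.8 and 13.9 in Tle4. Its E18.5 value was thus above its P7 value in both classes. So was its percentile rank, at 96.3 against 84.9 in Cux2 and 92.7 against 86.2 in Tle4. Tcf7l1, by contrast, stayed between 9.19 and 12.2 in all 8 lists, while Dvl2, Acvr1, Bmpr1a, Apc and Acvr2a had mean ranks of 9.41 to 16.4, near the bottom of the lists.

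Genes of the immature neuron gave 7 of 28 (25.0%): Apc2, Crmp1, Dpysl5, Kif21b, Kif5c, Sox12 and Tubb2b, which encode cytoskeletal and transport proteins of growing neurites and a SoxC transcription factor. Apc2, Crmp1, Kif21b and Kif5c kept another promoter region late, and at Kif5c that region lay in all 4 late lists. The Kif5c member itself did not span the TSS. It began at position 49475744 of chromosome 2, whereas the 250 bases before the TSS ended at 49474817 (plus strand). Tubb2b, a β-tubulin of migrating and growing neurons, had fold enrichments of 6.35, 6.34, 6.19 and 5.06 in Cux2 and 5.89, 5.52, 4.69 and 4.68 in Tle4. It was present in every early list but always near the bottom, with a mean rank of 1.05. Apart from Apc2, with a mean rank of 46.1, all of them ranked below 16. For axon guidance the count was 4 of 39 (10.3%), namely the receptors Epha4, Plxna2, Plxnb1 and Unc5b.

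Synaptic transmission gave 6 of 39 genes (15.4%). Of these, Syn1 is a vesicle protein, Snap25 and Stx1a are SNARE proteins, Rims1 is an active zone protein and Slc17a7 a vesicular glutamate transporter. Dlg3 is a postsynaptic scaffold. At Snap25 the fold enrichment was 9.78, 12.4, 7.08 and 5.07 in Cux2 and 9.20, 8.64 and 7.61 in Tle4 up to P3. At Syn1 it was 13.9, 15.0, 11.7 and 9.63 in Cux2 and 12.5, 13.5 and 9.53 in Tle4 up to P3. Both were missing from the Tle4 P7 list. Both had their lowest Cux2 fold enrichment at P7, where the median over all members was also lowest (8.12). Neither gene had another region in a late list. Dlg3 and Stx1a did, in up to 3 and 2 of the late lists. The Slc17a7 region lay 953 bp from the TSS, close to the limit of the rule.

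Among genes of dividing cells the lists differed. Cell cycle and DNA replication gave 1 of 47 (2.13%), while 24 of the 47 had a promoter region in all 12 lists. Over all promoter regions, counted as regions and not as genes, 2579 of 14278 lay in all 12 lists. The 1 gene was Cdk2, a cyclin-dependent kinase, with 8.55, 11.9, 12.1 and 13.2 in Cux2 and 11.8, 9.61, 15.2 and 10.6 in Tle4, showing no common order of ages in the classes. The progenitor list gave 3 of 20 (15.0%): Btg2, an antiproliferative factor of neurogenic divisions, Nfia and Vim. Btg2 had 12.2, 14.5, 17.4 and 12.8 in Cux2 and 11.4, 12.7, 10.1 and 8.82 in Tle4, so it was still listed in both classes at P7. DNA repair gave 3 of 40 (Ercc3, Lig3 and Xrcc2, 7.5%), with mean ranks of 61.0 to 78.8, and splicing factors 4 of 47 (Celf1, Elavl3, Snrpd1 and Srsf9, 8.51%).

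Neuronal identity and channel genes were near or around the background. Cortical projection neuron identity gave 2 of 23 (Foxp2, a corticothalamic transcription factor, and Zfpm2, 8.70%), and potassium channels 2 of 35 (Kcna6 and Kcnd2, 5.71%). Foxp2 ranked low, at a mean of 4.01, and had a peak in 3 early lists of each class. Chromatin regulators gave 4 of 39 (10.3%), with Setdb1, an H3K9 methyltransferase, at 17.6, 13.3, 13.5 and 9.31 in Cux2 and at 13.8 and 11.2 in Tle4 at E18.5 and P3, beside Bmi1, Hdac2 and Hells. Setdb1 was absent from the Tle4 P1 and P7 lists. The germline list gave 2 of 9 (Stag3 and the piRNA protein Piwil4) and the interferon and innate immune list 1 of 15 (Sp100).

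Large families lay between 4.30 and 8.33%, around the share over all genes. Zinc finger genes with the Zfp prefix gave 21 of 285 (7.37%), led by Zfp28, Zfp408 and Zfp787. A promoter region in all 12 lists was found for 55 of the 285, beside 2579 of all 14278 promoter regions. Zfp787, Zfp583 and Zfp28 lay within one stretch of chromosome 7, with regions starting at 6107155, 6281733 and 6335496, and Zfp229, Zfp820 and Zfp946 within one of chromosome 17. Zfp408 shared its region with the nearer start of Arhgap1. Mitochondrial ribosomal proteins gave 6 of 72 (8.33%), led by Mrps24, and solute carriers 13 of 200 (6.5%), led by Slc35a5, Slc39a14 and Slc7a4. The names beginning Rpl or Rps gave 4 of 93 (4.30%), of which Rpl5 and Rps10 are ribosomal proteins and Rps6ka1 and Rps6ka6 are kinases. The clustered protocadherins gave 1 of 2 (Pcdhgc5), and olfactory and vomeronasal receptors 0 of 18 and Hox genes 0 of 2.

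Markers of other cell types had few promoter regions in the lists, too few to set their shares apart from 7.27%. The interneuron list gave 1 of 10 (10.0%), Prox1, a homeobox factor of caudally derived interneurons, whose fold enrichment was 15.2, 16.8, 10.7 and 9.99 in Cux2 and 14.3, 15.0, 12.5 and 8.92 in Tle4. The Prox1 region was thus listed in both classes at every early age. Astrocyte (0 of 5), oligodendrocyte lineage (0 of 1), microglia (0 of 3) and endothelial and mural markers (0 of 1) gave none. Across the 12 lists, promoter regions were listed for 2 to 19 of 29 projection neuron identity genes, 1 to 10 of 20 interneuron markers (10 in Cux2 at E18.5), 0 to 3 of 10 astrocyte, 0 or 1 of 11 oligodendrocyte, 0 to 2 of 10 microglial and 0 or 1 of 11 endothelial markers. The part of labelled interneurons in the membership was not tested.

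Some member genes still had an open start late, at about the share of all promoter regions. For 182 members (20.8%, 95% Wilson interval 18.2 to 23.6%) the gene had another promoter region in at least 1 late list, compared with 14.8% of kept regions and 22.2% of all promoter regions, and for 58 (6.63%) that region was in late lists of both classes. The remaining 693 (79.2%) had none, and 633 (72.3%) were the only promoter region of their gene in any list, against 80.5% of kept regions and 70.1% of all promoter regions. Late peaks of any kind were usually some way off, at a median of 11469 bp, although 76 members (8.69%) had one within 1 kb and 242 (27.7%) within 5 kb.

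Among the 18 motifs, the widest gap between members and kept regions was at the CCAAT box. In the window from 250 bp before to 50 bp after the TSS, CCAAT was found at 282 members (32.2%, 95% Wilson interval 29.2 to 35.4%), at 48.2% of kept regions (47.0 to 49.4%), at 64.2% of regions open in all 12 lists and at 39.2% of all promoter regions. NFY, the factor named for this box, is a general promoter-binding factor. Much of the gap went with early strength, since in the 4 bins of early rank, from weakest to strongest, kept regions had a CCAAT at 35.6, 38.6, 48.4 and 66.0%, and members at 27.2, 36.8 and 39.6% and, in the strongest bin, in 11 of 20. The members' share was the lower in each bin. Among island-like regions the shares were 29.7% and 47.9%, and among the others 39.2% and 49.1%.

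**Figure D5:**
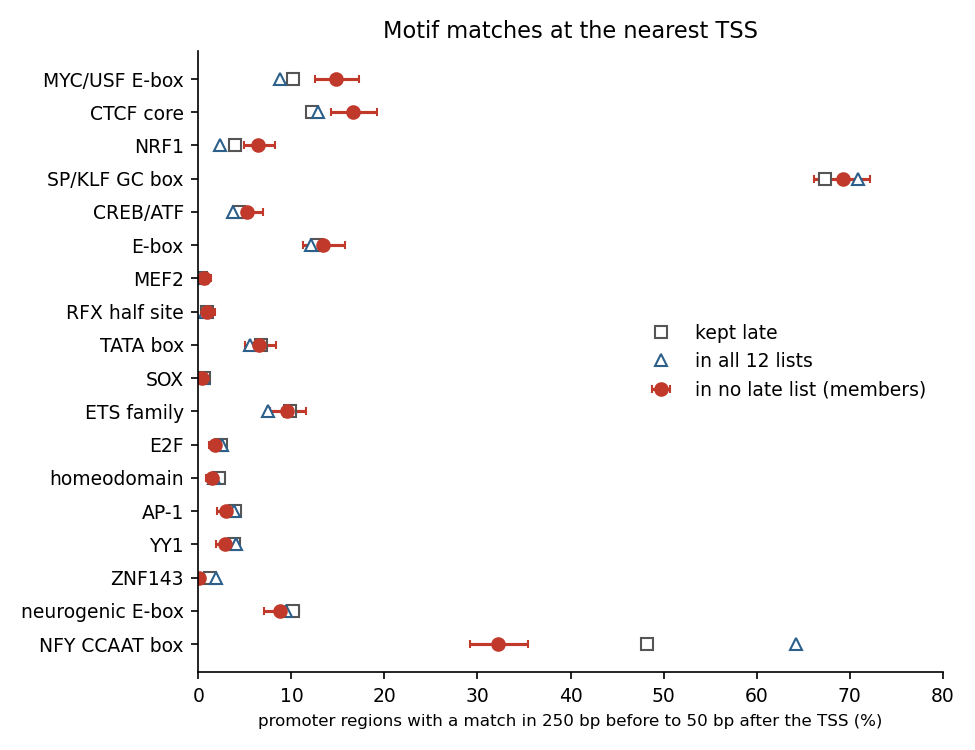
Percent of promoter regions with a match to each of 18 motifs (x axis) in members (filled, with 95% Wilson intervals), kept regions (squares) and regions in all 12 lists (triangles). The CCAAT box stands out at 32.2, 48.2 and 64.2%, and the MYC/USF E-box, CTCF core and NRF1 lie slightly higher in members.

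In the other direction, the MYC/USF E-box was found at 14.7% of members (12.5 to 17.2%), 10.2% of kept regions and 9.18% of all promoter regions. The CTCF core was at 16.6% (14.3 to 19.2%), 12.2% and 10.2%, and NRF1 at 6.40% (4.96 to 8.22%), 3.94% and 2.98%. All of these contain CG or GC runs and the members were richer in GC, so composition moved with them and its part was not tested. By bin of early rank, NRF1 had no constant direction, at 4.77, 9.56 and 2.97% of members and, in the strongest bin, 4 of 20, against 2.91, 4.30, 5.32 and 3.10% of kept regions. GC boxes were as frequent in members (69.3%) as in kept regions (67.3%), and ETS (CCGGAAGT, 9.49 and 9.81%), CREB/ATF (5.26 and 4.38%) and TATA (6.51 and 6.70%) differed little. ZNF143 (ACTACAATT) matched 1 member (0.114%) and 1.20% of kept regions. The remaining motifs, YY1 (AAGATGGCG), E2F (TTTCCCGC), an RFX site (GTTGCCATG), AP-1, MEF2 (CTATTTATA), the E-boxes CAGATG and CAGCTG, SOX (AACAATGG) and a homeodomain core (TAATTA), differed by less than 2 points. All promoter regions held them at 2.59, 1.81, 0.953, 5.48, 0.308, 13.8, 15.9, 0.609 and 3.14% in that order.

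Regions around the limits of the rule showed how far membership rests on it. Just inside, the 74 members in exactly 2 lists of each class had a median mean rank of 21.5, led by Lima1, Hydin and Cdc7 at 73.3, 63.1 and 57.4. Just outside, 364 regions held by only 1 early list of a class had 27.4, led by Ext2, Mfsd6 and Kcnd1 at 74.9, 74.8 and 74.5. At the late limit, 1360 regions lay in exactly 1 late list, 1265 of them in that of Cux2 at P48, the longest list of all, and their median was 53.6, led by Pdpk1, Cog2 and Taf7 at 98.5, 97.3 and 97.3. Without the Cux2 P48 list the rule would return 2140 regions. By distance, 45 members more than 500 bp from a TSS had a median of 30.6, led by Gm14154, Col4a2 and Sim1, and 37 regions just beyond the limit, at up to 1500 bp, had 41.3, the leading ones ranking 77.6, 69.5 and 66.4. Absence from a late list means only that no peak passed the authors' threshold there.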

How the data were processed

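ATAC-seq libraries from 2 neuron classes at 6 ages, with 2 replicates each (24 libraries), were analysed as 12 peak lists. Per the methods, the authors aligned reads to NCBI37 (mm9) with Bowtie2 and removed duplicates with Picard 2.7.1. They called peaks for each group from its 2 replicates with MACS2 2.1.1 and kept those at an irreproducible discovery rate of at most 0.1. The deposited files give each peak a score, a fold enrichment over local background (a ratio), -log10 p-values and q-values, and the summit offset. Read counts per replicate were not used here, so the depth reached by each library (the methods give 1 nominal value for all) and the spread between replicates are unknown, and p-values measure only the spread between lists. Some 292934 of 292994 peaks were used, the rest lying outside chromosomes 1 to 19, X and Y. A region's summit was the median over its peaks in all lists. Its fold enrichment and -log10 p in a list were each the highest among its peaks there.

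TSSs (95458) came from GENCODE vM1 on NCBIM37, the build of the files. Percentile ranks were taken within each list because fold enrichment is not normalized between lists. Tests were exact permutations over lists, adjusted as 1 family of 4 (Benjamini-Hochberg), of which those of members present are given as values only because presence chose the members, in Python 3.11.15 with numpy 2.4.6, pandas 2.3.3, scipy 1.17.1 and pysam 0.24.0, and were tested on simulated data. The rank tests use the lists that chose the members and serve as a description only. Shares of regions carry Wilson 95% intervals and no test.

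Members, gene lists (26), motifs (18) and the late-age rule were chosen with earlier results of these data known. Genes named are the 10 members of highest mean rank with a protein-coding TSS, the 5 such with a CpG ratio under 0.3, all members of the gene lists (the 3 highest for lists given by prefix; further members of these families were named after their values were seen), and the 3 regions of highest rank on either side of each limit. A withheld item is not reported here. Alternatives were equal list lengths, a common -log10 p, other TSS distances, list numbers and rankings, and each list or age left out.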

Additional observations from a re-analysis of the deposited data

Results flagged for a closer look

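Of 26 groups of 4 lists examined for a list standing far from the others, 4 did so. The nominal rate of the rule, about 1 in 20, holds for independent values. These groups share the same lists, and the genes flagged were named for their high rank in them. The count therefore cannot be set against that rate. Members made up 4.20% of the promoter regions of the Tle4 P7 list, against 9.45 to 9.81% in the earlier Tle4 lists. At Sp100 the Cux2 P1 value of 20.9 stood above the other Cux2 values of 19.3 to 19.4. At Epn1 the Cux2 P7 value of 11.1 stood below 18.6 to 19.3 at the earlier ages. At Smap2 the Cux2 P1 value of 17.7 stood above 15.3 to 15.6. Fold enrichment is not normalized between lists, and by percentile rank Sp100 at Cux2 P1 (96.9) was below the other Cux2 lists (97.8 to 99.2). Smap2 at Cux2 P1 (91.7) was close in rank to E18.5 and P3 (91.0 and 91.1) and below P7 (96.1). Epn1 at Cux2 P7 stood low by rank too, at 79.2 against 93.5 to 97.9.

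The slopes of the members' median rank on age also differed between the classes, at -6.21 points per age step in Cux2 and 2.31 in Tle4, a difference of -8.52 (exact two-sided permutation of ages within class, p = 0.0104, a comparison added after the data were seen). The members present differ from list to list, and for the 145 members present in all 8 lists the slopes were -3.40 and -4.53 and their difference 1.13 (exact permutation p = 0.840). The difference was therefore not seen in regions that every list held. Ranks and members come from the same lists, so these p-values cannot decide whether the classes differ.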

How the results depend on the processing

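No paired analysis was possible because each group has 1 list for both replicates, which carries no replicate number. The count of 875 regions became 532 with at least 3 early lists of each class required, 145 with all 4, and 2235 with 1 late list allowed. Leaving out 1 list at a time gave 613 to 2140, the highest without Cux2 P48. Equal list length, a common -log10 p, other TSS limits and a summit rule gave 830 to 1179. The class difference in members present (126.25) was -0.391 as a percent of promoter regions and -69.8 at a common -log10 p, and 40.7 to 180 with an age left out. The age trend (-90.7) was -23.2 at equal list length and -166 to 30.0 with an age left out, the last without P7. The class difference in rank (6.77) was 3.15 to 11.2 and the age trend in rank (-1.95) -3.46 to -0.861 with an age left out. The class difference could not pass the threshold in this design (smallest p 0.12 with 4 ages and 0.25 with 3), nor could the age trend with an age left out (smallest p 0.0556). Ranking by -log10 p (14.3), ranking among promoter peaks (6.63) and members in all 8 lists (8.32) gave class differences at that smallest p, Cux2 being higher at all 4 ages (exact permutation). These ranks also come from the lists that chose the members, so they cannot decide whether the classes differ. The island-like share was 62.3% under stricter limits, the share with another late promoter region 6.63% when both classes were required, and the rank gap -4.05 for members in all 8 lists. The class difference in rank slopes (-8.52) was 1.13 for members in all 8 lists, 0.846 for these ranked among promoter peaks (p = 0.872), -5.83 when ranked by -log10 p (p = 0.118) and -12.0 to -8.10 with an age left out, all by exact permutation. The alternatives with these members and the denominator of kept regions (difference 7.69 points, slope -8.18 points per step) were chosen after seeing the data. Causes were not tested. Peaks under the authors' threshold, and so late openness below it, cannot be seen in these lists.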
